A study of Saccharomyces cerevisiae with 6 samples.

Results

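The genes examined here are the 10 yeast genes for the use of allantoin and urea as nitrogen sources, chosen by name: *DAL1*, *DAL2*, *DAL3*, *DAL4*, *DAL5*, *DAL7*, *DAL81*, *DAL82*, *DUR3* and the urea amidolyase gene YBR208C, which the files list as *DUR1,2*. All 10 are among the 7126 genes of the count table, and all 10 passed the filter on low counts that left 6083 genes for testing. RNA was compared between a strain with *kcs1*-S537A,S646A, in which a pair of serines of the inositol polyphosphate kinase Kcs1 are changed to alanine, and its control with wild-type *KCS1*. Both strains are diploids of the filamentous Σ1278b background, both lack the 2 chromosomal copies of *KCS1*, and both carry the gene on pRS416, a low-copy centromeric plasmid. There were 3 colonies of the mutant strain and 3 of the wild-type strain, each grown to saturation without uracil and then for 20 h in low-nitrogen medium. All colonies with an allele came from 1 strain, so the allele cannot be told apart from other differences between the strains.

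Yeast cells take up and degrade allantoin when better nitrogen sources such as ammonium or glutamine run out. Allantoin is opened to allantoate, allantoate is split to urea and glyoxylate, and urea is broken down to ammonia and carbon dioxide by way of allophanate. The permease and enzyme genes are held down by nitrogen catabolite repression in rich nitrogen and are activated by the GATA factors Gln3 and Gat1. Several of them are induced further by allophanate, through the activators Dal81 and Dal82. The files describe all 8 permease and enzyme genes as sensitive to nitrogen catabolite repression, and 5 of them (*DAL2*, *DAL4*, *DAL7*, *DUR3* and *DUR1,2*) as induced by allophanate.

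Total counts were between 20529351 and 22701020 in the mutant libraries, against 17950923 to 20822332 in the wild-type libraries, and counts of the 10 genes ranged from 589 to 49795 per library. Some libraries stood apart. In mutant replicate 1, chromosome VI (131 genes tested) had a median log2 difference from the wild-type mean of -0.95. Chromosome XIV (407 genes tested) had medians between -0.54 and -0.52 in the 3 mutant libraries. *DAL82* lies on chromosome XIV and none of the 10 genes lies on chromosome VI. *KCS1* itself was at 272.2, 796.7 and 347.4 CPM (counts scaled to the size of the library) in the mutant libraries, against 366.7, 309.1 and 340.6 CPM in the wild-type libraries. Mutant replicate 2 was high for *KCS1* and also for *URA3*, the marker gene of the plasmid. *URA3* was at 1649, 4741 and 2156 CPM in the mutant, against 2062, 1704 and 1570 CPM in the wild type. The 12 haploid-specific genes checked, low in a/α diploids, had medians of 13.9 to 17.1 FPKM (a level per gene length) in the mutant libraries and 14.5 to 15.7 FPKM in the wild-type libraries, below the median of all genes tested in every library (at least 42.3 FPKM). Of the 12, 1 was called higher in the mutant in edgeR (*STE4*), where 0.986% of all genes were, and 0 with an offset per library for chromosomes XIV and VI. *HO* was lowest of them, at a mean of 0.92 FPKM in the mutant and 0.70 FPKM in the wild type. *MFA1* went the other way, at 51.5 to 107 FPKM, above the median of all genes tested in every library. Its values rest on 108 to 260 counts per library over a very short gene (chromosome IV, 1385176 to 1385286). *STE4* was near the median of all genes tested in the mutant, at 41.4 to 45.2 FPKM, against 26.8 to 33.8 FPKM in the wild type. *MEP2*, the high-affinity ammonium permease gene induced when nitrogen is scarce, was at 2457 FPKM in the mutant and 3057 FPKM in the wild type. It lies on chromosome XIV, and the strains overlapped, with mutant replicate 1 at 3379 FPKM, above all wild-type libraries. Its log2 fold change was -0.32 (adjusted *p* = 0.48 from edgeR).

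The promoters were searched for short sequences that the factors named above are known to bind. The hexamer GATAAG is bound by GATA factors, and ATTGCG is an inner part of the sequence bound by Dal82. Both were searched on both strands in the 500 bases before each start codon in the RefSeq S288C reference (R64), with overlapping matches counted. All 10 genes held at least 1 GATAAG, against 22.6% of the 6659 protein-coding genes with such a window, and 7 of the 10 held at least 2, against 3.48%. *DAL3* held 5, *DAL4* held 4, and *DAL1*, *DAL5*, *DAL7* and *DUR1,2* held 3 each. *DAL1* and *DAL4* are divergent genes 825 bases apart, and 3 of their matches are shared. ATTGCG was found before *DAL1*, *DAL7* and *DUR3*, against 15.8% of all genes. The 4 stretches below, each from 300 to 51 bases before the start codon, are those of the permease gene with the highest level (*DAL5*), of the enzyme genes that lay furthest apart from each other in mutant replicate 1 (*DAL2* and *DAL7*), and of the urea permease gene (*DUR3*). Both motifs, on either strand, are in capitals. The GATAAG match of *DUR3* lies outside its stretch. The sequence is that of the reference and not of Σ1278b.
DAL5 (chrX:719366-719615, plus strand): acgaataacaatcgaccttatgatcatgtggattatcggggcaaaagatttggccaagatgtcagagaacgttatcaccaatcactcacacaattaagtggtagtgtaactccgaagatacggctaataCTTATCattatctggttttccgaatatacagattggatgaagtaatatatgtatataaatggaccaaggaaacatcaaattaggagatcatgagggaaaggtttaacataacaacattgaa
DAL2 (chrIX:410507-410756, plus strand): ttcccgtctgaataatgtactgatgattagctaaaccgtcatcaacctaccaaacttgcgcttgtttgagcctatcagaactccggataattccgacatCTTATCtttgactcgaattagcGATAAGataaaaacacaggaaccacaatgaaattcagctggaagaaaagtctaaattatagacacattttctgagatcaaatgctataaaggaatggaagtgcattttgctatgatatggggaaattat
DAL7 (chrIX:414730-414979, minus strand): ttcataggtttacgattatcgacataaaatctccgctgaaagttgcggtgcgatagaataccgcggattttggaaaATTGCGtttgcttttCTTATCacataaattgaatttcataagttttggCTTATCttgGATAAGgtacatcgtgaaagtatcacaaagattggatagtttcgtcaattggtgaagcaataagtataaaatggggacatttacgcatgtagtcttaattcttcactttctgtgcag
DUR3 (chrVIII:74295-74544, minus strand): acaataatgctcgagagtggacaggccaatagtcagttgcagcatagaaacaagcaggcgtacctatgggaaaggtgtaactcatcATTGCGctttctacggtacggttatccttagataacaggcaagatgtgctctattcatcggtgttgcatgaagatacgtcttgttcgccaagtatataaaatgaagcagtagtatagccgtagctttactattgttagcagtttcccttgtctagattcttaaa

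None of the 10 genes passed an adjusted *p*-value of 0.05 between the strains in edgeR's quasi-likelihood test, where 5.66% of all 6083 genes tested did (0.986% higher and 4.67% lower in the mutant). At an unadjusted *p*-value under 0.05 there were 2, against 20.1% of all genes. These were *DAL2*, which was higher (8.24% of all genes), and *DAL82*, which was lower (11.9% of all genes). Of the 9 genes outside chromosomes XIV and VI, 0 passed after adjustment and 1 without it, where 1.98% and 15.9% of all genes there did. DESeq2 called 1 of the 10 (*DAL82*) and 9.73% of all genes, and limma-voom called 0 of the 10 and 5.56% of all genes. At an unadjusted *p*-value under 0.05, DESeq2 gave 3 of the 10 and 20.1% of all genes, and limma-voom 3 of the 10 and 19.9%. The genes higher in the mutant made up 17.4% of the 344 calls in edgeR and 28.5% of the 592 in DESeq2. In edgeR fitted without chromosomes XIV and VI they made up 56.3% of only 16 calls. The fitted log2 fold changes of the 10 genes, mutant over wild type, lay between -0.39 and 0.41, with 6 above 0 (53.2% of all genes) and 4 below. Their median was 0.036 beside 0.015 over all genes tested. Taken without sign, the median was 0.21 beside 0.14 over all genes tested. The 95% intervals of the 10 fold changes had bounds between 0.535 (*DAL7*) and 1.69 (*DAL2*) on the linear scale. In 2 of the 10 genes, *DAL2* and *DAL82*, the libraries of the strains did not overlap, as in 26.6% of all genes. In RNA from whole cultures, a lower level in each cell and fewer cells that express a gene cannot be told apart. Estimates given below are log2 fold changes, mutant over wild type, ± standard error, each with its *p*-value from edgeR after adjustment.

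**Figure D1:**
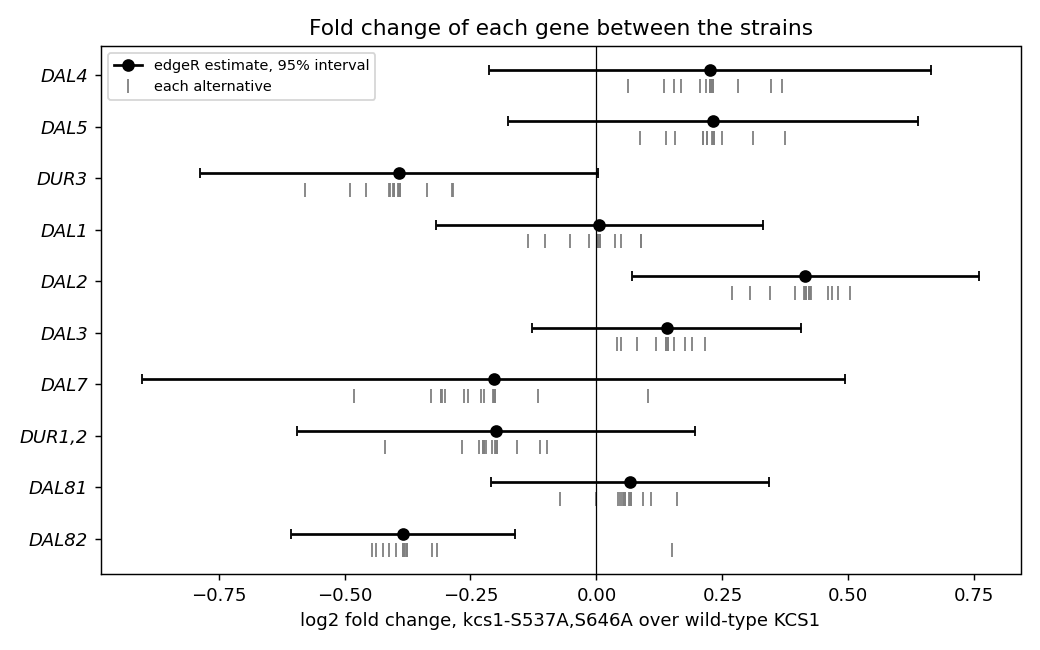
Log2 fold change of each gene, *kcs1*-S537A,S646A over wild-type *KCS1* (horizontal axis), for the 10 genes from the top in the order permeases, enzymes, regulators. Points are edgeR estimates with 95% intervals from 3 libraries per strain, and grey ticks are the same value under each alternative of processing. The intervals of *DAL2* and *DAL82* lie to one side of 0 before adjustment over all genes.

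The estimates for the permease genes lay on both sides of 0, and none passed the test. *DAL5* encodes the allantoate permease, which also carries ureidosuccinate and dipeptides (chromosome X, 719666 to 721297). Its level was 2600, 1724 and 2251 CPM in mutant replicates 1, 2 and 3, against 2069, 1913 and 1618 CPM in the wild-type replicates. Mutant replicate 1 was the highest library, mutant replicate 2 lay within the wild-type range, and the strains overlapped. The *DAL5* estimate was 0.23 ± 0.18 (adjusted *p* = 0.51). *DAL4* encodes the allantoin permease (chromosome IX, 408468 to 410375). It was at 290.7, 411.8 and 404.4 CPM in the mutant, against 366.7, 339.6 and 240.7 CPM in the wild type. Mutant replicates 2 and 3 lay above all wild-type libraries and mutant replicate 1 lay between them. The *DAL4* estimate was 0.23 ± 0.19 (adjusted *p* = 0.56). *DUR3* encodes the plasma membrane transporter of urea and polyamines (chromosome VIII, 72037 to 74244). It was at 443.3, 482.6 and 654.5 CPM in the mutant, against 788.9, 689.0 and 595.7 CPM in the wild type. Mutant replicates 1 and 2 were below all wild-type libraries and mutant replicate 3 was within their range. The *DUR3* estimate was -0.39 ± 0.17 (unadjusted *p* = 0.052, adjusted *p* = 0.25).

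**Figure D2:**
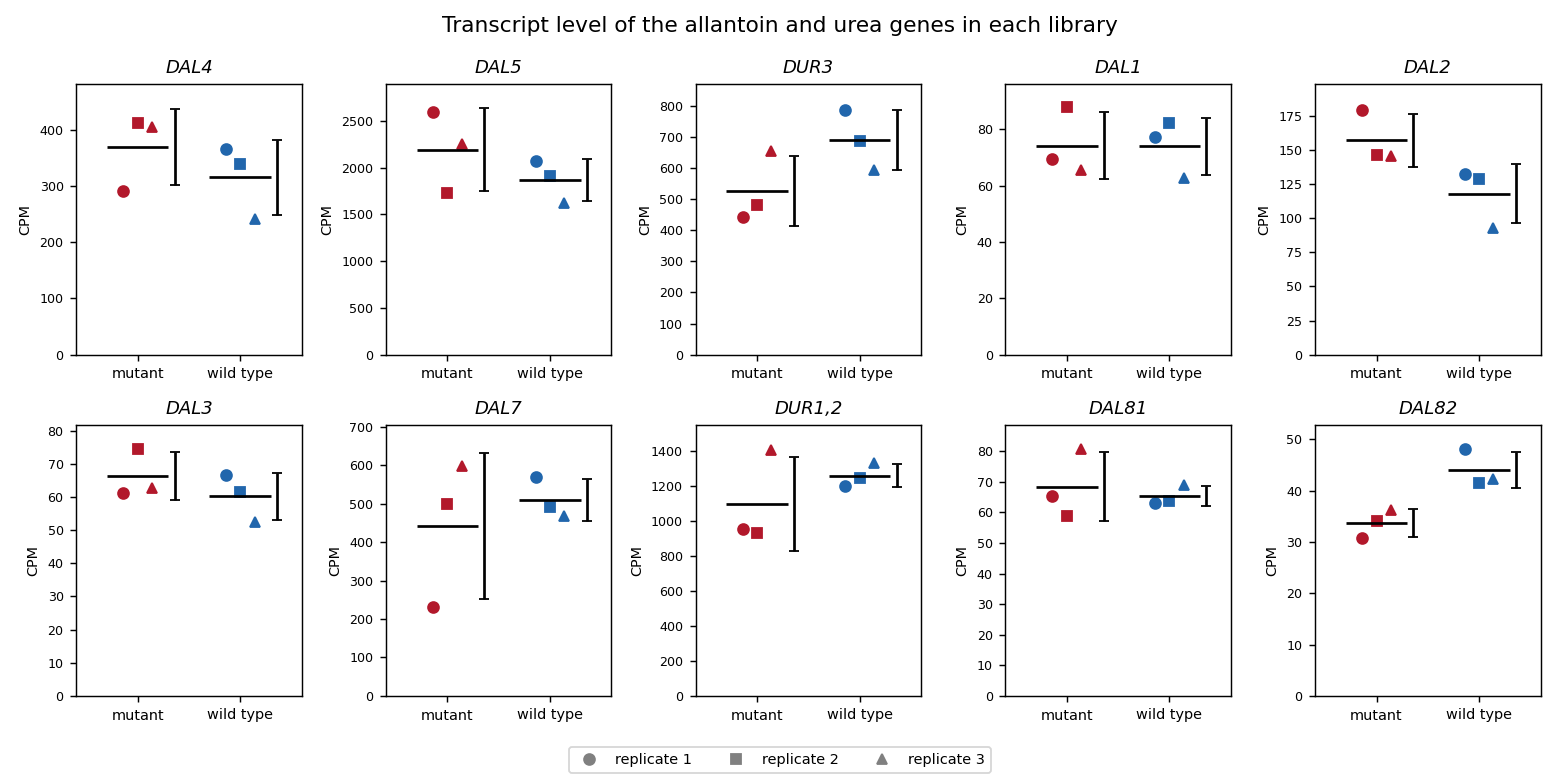
Transcript level in CPM (vertical axes, each starting at 0) of the 10 genes in the 3 mutant libraries (left in each panel) and the 3 wild-type libraries (right). Lines are means, bars are 1 SD and the marker gives the replicate number. Only in *DAL2* and *DAL82* are the strains without overlap, and *DAL7* is low in mutant replicate 1 alone, at 230.0 CPM.

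Of the genes for the steps of allantoin breakdown, *DAL2* alone had no overlap between the strains. *DAL1* encodes allantoinase, which opens the ring of allantoin (chromosome IX, 406260 to 407642). It had nearly the same mean in both strains, with 74.2 ± 11.9 CPM in the mutant and 73.9 ± 10.2 CPM in the wild type (SD, n = 3 each). The 95% interval of its log2 fold change was -0.32 to 0.33. *DAL2* encodes allantoicase, which splits allantoate to urea and ureidoglycolate (chromosome IX, 410807 to 411838). It was at 179.8, 146.7 and 145.4 CPM in the mutant, against 132.4, 128.6 and 93.1 CPM in the wild type. All 3 mutant libraries lay above all wild-type libraries. The *DAL2* estimate was 0.41 ± 0.15, with a 95% interval of 0.070 to 0.76 and an unadjusted *p* of 0.024, and did not pass after adjustment (adjusted *p* = 0.17). *DAL3* encodes the enzyme that releases the remaining urea and glyoxylate from ureidoglycolate (chromosome IX, 415030 to 415617). Its means were 66.2 ± 7.28 CPM in the mutant and 60.2 ± 7.08 CPM in the wild type (SD, n = 3 each). The *DAL3* estimate was 0.14 ± 0.12 (adjusted *p* = 0.55).

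*DAL7* encodes a malate synthase, an enzyme that joins glyoxylate to acetyl-CoA (chromosome IX, 413015 to 414679). Of the 10 genes it had the largest ratio of highest to lowest library in the mutant, with 230.0, 500 and 597.1 CPM in mutant replicates 1, 2 and 3, against 569.9, 491.3 and 467.5 CPM in the wild type. Mutant replicate 1 lay well below all other libraries, mutant replicate 2 within the wild-type range and mutant replicate 3 above it. That ratio was 2.60 in the mutant and 1.22 in the wild type. The *DAL7* estimate was -0.20 ± 0.30 (adjusted *p* = 0.76) over all libraries and 0.10 (adjusted *p* = 0.69) without mutant replicate 1. The direction of the *DAL7* estimate therefore rested on that library. The paralog *MLS1*, the glyoxylate cycle malate synthase gene on chromosome XIV, had a log2 fold change of -0.58 (adjusted *p* = 0.14). No 50-base window of *DAL7*, nor of any of the other 9 genes, occurred a further time in the reference genome. The annotated reading frame YIR030W-A overlaps *DAL7*, and YIR023C-A overlaps the regulator gene *DAL81*. Neither reading frame passed the filter on low counts. The strand setting of the counting is not given in the sources used here, so reads in these overlaps cannot be assigned to a strand.

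*DUR1,2* encodes urea amidolyase, a single protein that carboxylates urea to allophanate and hydrolyses the product (chromosome II, 636703 to 642210). It was at 955.1, 931.2 and 1408 CPM in the mutant, against 1202, 1247 and 1334 CPM in the wild type. Mutant replicates 1 and 2 were below all wild-type libraries and mutant replicate 3 was above them. The *DUR1,2* estimate was -0.20 ± 0.17 (adjusted *p* = 0.57). The urea permease gene *DUR3* had its lowest levels in the same pair of mutant libraries. Set against the wild-type mean on the log2 scale, mutant replicates 1, 2 and 3 were at -0.40, -0.44 and 0.16 for *DUR1,2* and at -0.63, -0.51 and -0.069 for *DUR3*. The enzyme genes *DAL1* and *DAL3*, in contrast, were highest in mutant replicate 2, at 0.26 and 0.32. In the wild type, *DUR1,2* and *DUR3* ran in opposite order. Wild-type replicates 1, 2 and 3 were at -0.068, -0.015 and 0.083 for *DUR1,2* and at 0.20, 0.0049 and -0.21 for *DUR3*. Other genes under nitrogen catabolite repression, described below, were divided. As for the urea genes, mutant replicate 3 was the highest mutant library for *UGA1* and *PUT2*, but not for *GDH2* or *CPS1*.

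**Figure D3:**
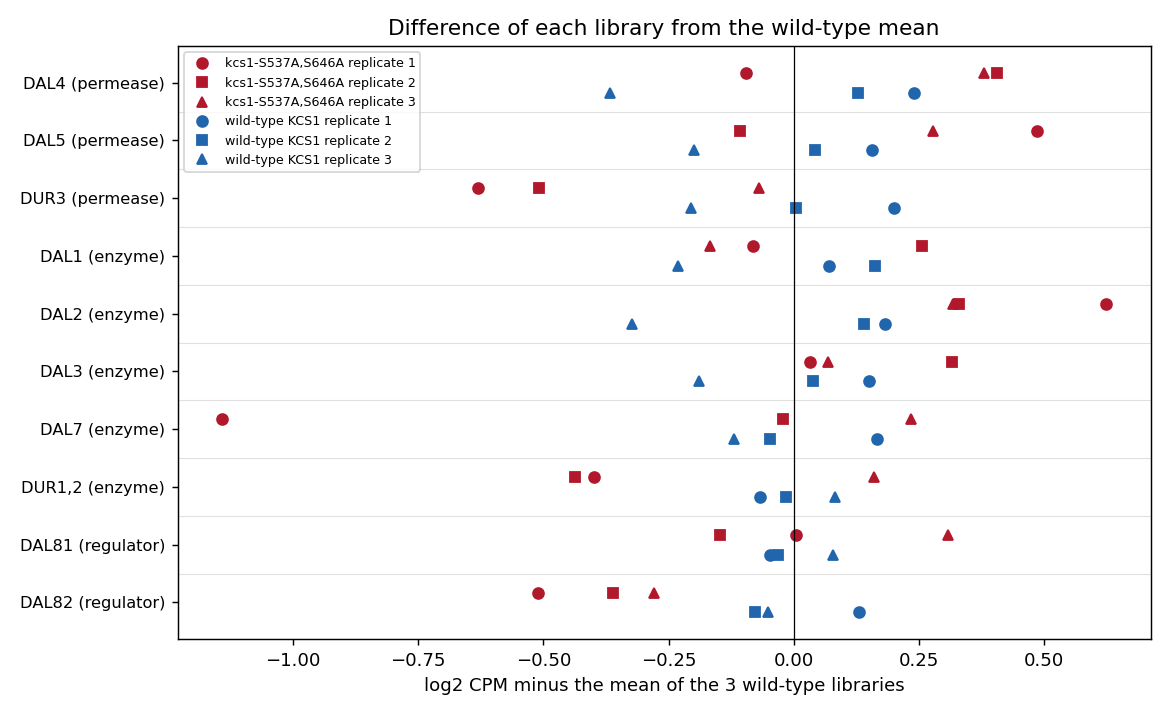
Log2 CPM of each library minus the mean of the 3 wild-type libraries (horizontal axis) for the 10 genes, with mutant libraries above and wild-type libraries below in each row. *DAL7* reaches -1.14 and *DAL2* 0.62 in the same mutant library, replicate 1.

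The 8 permease and enzyme genes were not all on one side of the wild-type mean in any mutant library. Mutant replicate 1 had 3 of the 8 above the wild-type mean and 5 below, with *DAL2* at 0.62, *DAL5* at 0.49, *DUR3* at -0.63 and *DAL7* at -1.14 on the log2 scale. Mutant replicate 2 had 4 above and 4 below, and mutant replicate 3 had 6 above and 2 below, between -0.17 and 0.38. The genes described as induced by allophanate were on both sides in mutant replicate 1, as *DAL2* was above and *DAL4*, *DAL7*, *DUR3* and *DUR1,2* were below. In the wild type, 7 of the 8 were above the mean in replicate 1, 6 in replicate 2 and 1 in replicate 3, where *DAL4* was at -0.37 and *DAL2* at -0.32. Together the 8 genes took 0.451%, 0.454% and 0.538% of all counts in mutant replicates 1, 2 and 3, against 0.538%, 0.514% and 0.451% in wild-type replicates 1, 2 and 3. These shares covered almost the same range in the strains. They weigh each gene by its counts, most of all *DAL5* (34019 to 49795 per library) and then *DUR1,2* (18289 to 30765). Over the 10 genes, the SD of log2 CPM was larger among the mutant than among the wild-type libraries in 7, beside 78.6% of all genes tested.

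Of the 10 genes, *DAL1*, *DAL4*, *DAL2*, *DAL7* and *DAL3* lie side by side in this order on the right arm of chromosome IX, with *DCG1*, a gene of unknown role, between *DAL2* and *DAL7*. *DCG1* is not one of the 10 genes. It was at 101.9, 111.3 and 124.8 CPM in the mutant, against 120.3, 117.2 and 98.9 CPM in the wild type, and its log2 fold change was 0.0074 (adjusted *p* = 0.98 from edgeR). Over the 6 libraries, its centred log2 CPM was the closest to the average of the 8 permease and enzyme genes among 5931 other genes, with a root mean square difference of 0.023 (median over those genes 0.20). The next were *RFM1* (0.052), *LSB1* (0.053), *HER2* (0.054) and *HNT3* (0.061), which lie on chromosomes XV, VII, XIII and XV. The 8 genes themselves were at 0.13 (*DAL3*) to 0.38 (*DAL7*) from their own average. *DAL5*, *DUR3*, *DUR1,2*, *DAL2* and *DAL7* lay further from it than the median gene, and *DAL1*, *DAL3* and *DAL4* closer. The average itself was nearly flat, between -0.20 and 0.15 over the 6 libraries. A small distance from it is therefore not likeness to each of the 8 genes. Of the 17 genes that make up the cluster and the 5 genes on each side of it, 14 were tested. None of the 14 was called in edgeR or limma-voom (5.66% and 5.56% of all genes). At an unadjusted *p*-value under 0.05 in edgeR there were 2 (20.1% of all genes), *DAL2* and YIR035C. YIR035C was nearest to the threshold (log2 fold change 0.48, adjusted *p* = 0.058 from edgeR). It was the 1 gene of the 14 called in DESeq2 (9.73% of all genes). The median log2 fold change of the 14 was 0.045.

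**Figure D4:**
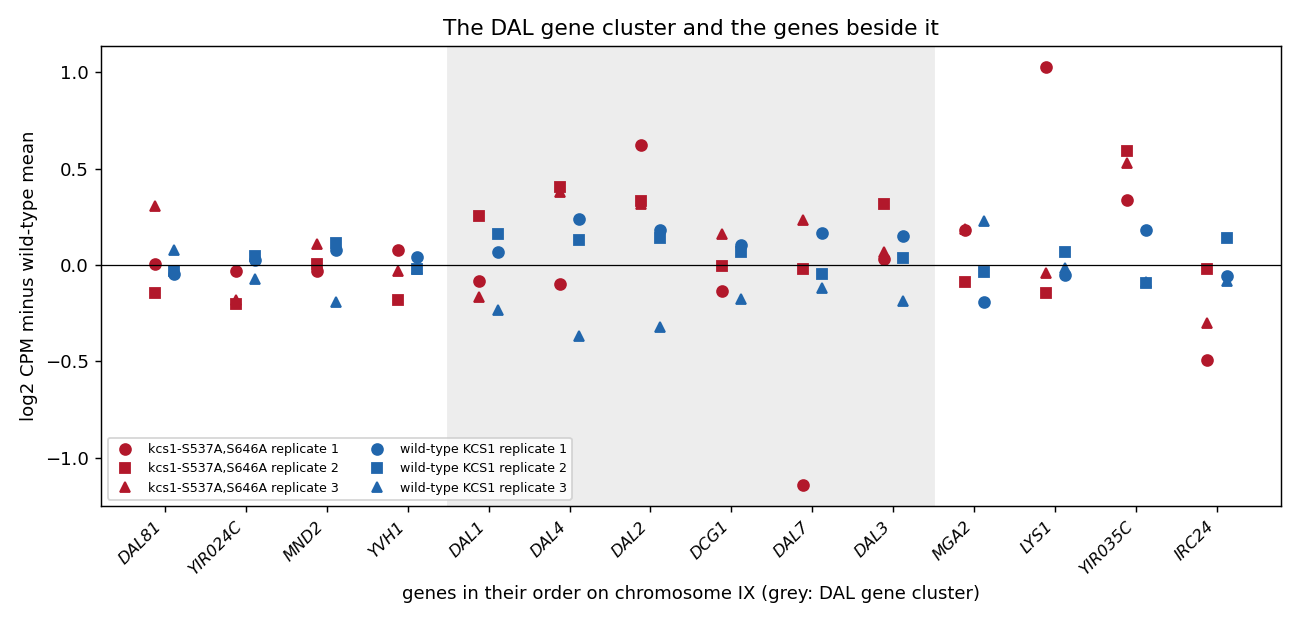
Log2 CPM of each library minus the wild-type mean (vertical axis) for the 14 tested genes of the *DAL* cluster (grey) and beside it, in chromosome order. In mutant replicate 1, *DAL2* is at 0.62 and *DAL7* at -1.14 with *DCG1* between them at -0.13.

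Neither regulator gene passed the test in edgeR. *DAL81* encodes an activator of several nitrogen pathways, among them those of allantoin, urea and 4-aminobutyrate (chromosome IX, 399777 to 402689). It was at 65.5, 58.9 and 80.8 CPM in the mutant, against 63.2, 63.8 and 68.9 CPM in the wild type, with mutant libraries on both sides of the wild-type range. The *DAL81* estimate was 0.067 ± 0.12 (adjusted *p* = 0.80).

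*DAL82* encodes the activator that binds upstream of the allophanate-inducible genes (chromosome XIV, 44447 to 45214). It was at 30.8, 34.2 and 36.2 CPM in the mutant, against 48.0, 41.6 and 42.3 CPM in the wild type. All mutant libraries lay below all wild-type libraries. The *DAL82* estimate was -0.38 ± 0.096, with a 95% interval of -0.61 to -0.16 and an unadjusted *p* of 0.0041, and did not pass after adjustment (adjusted *p* = 0.065). DESeq2 gave -0.38 with an adjusted *p* of 0.021, below the threshold, and limma-voom -0.38 with 0.067. Of the 407 genes tested on chromosome XIV, 387 had a log2 fold change below 0 and 57.2% were called. Their median was -0.52, and 75.7% of them had a lower value than *DAL82*. In mutant replicates 1, 2 and 3, *DAL82* stood 0.012, 0.18 and 0.25 above the median log2 difference of its chromosome, against 0.12, -0.069 and -0.055 in the wild-type libraries. With an offset per library for chromosomes XIV and VI, the estimate was 0.15 ± 0.096 (adjusted *p* = 0.47). The direction of the *DAL82* estimate thus depends on whether the gene is set against all genes or against its own chromosome.

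Levels per gene length, as FPKM, spread over about the same order in both strains. *DAL5* was highest, at 1343 ± 271 FPKM in the mutant and 1143 ± 137 FPKM in the wild type (SD, n = 3 each), above 97.2% of the genes tested in the mutant and 96.9% in the wild type. In the mutant it was followed by *DAL7* (265.5 FPKM), *DUR3* (238.5 FPKM), *DUR1,2* (199.3 FPKM), *DAL4* (193.3 FPKM) and *DAL2* (152.3 FPKM), and each neighbour in this run overlapped the next over its libraries. *DAL3* (112.6 FPKM), *DAL1* (53.6 FPKM), *DAL82* (43.9 FPKM) and *DAL81* (23.5 FPKM) came after them without overlap between neighbours. In the wild type, *DUR3* (312.7 FPKM) and *DAL7* (305.7 FPKM) overlapped, as did *DAL4* (165.3 FPKM), *DAL2* (114.3 FPKM) and *DAL3* (102.2 FPKM), and *DAL82* (57.2 FPKM) and *DAL1* (53.4 FPKM). *DUR1,2* (228.8 FPKM) and *DAL81* (22.4 FPKM) stood apart from their neighbours.

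**Figure D5:**
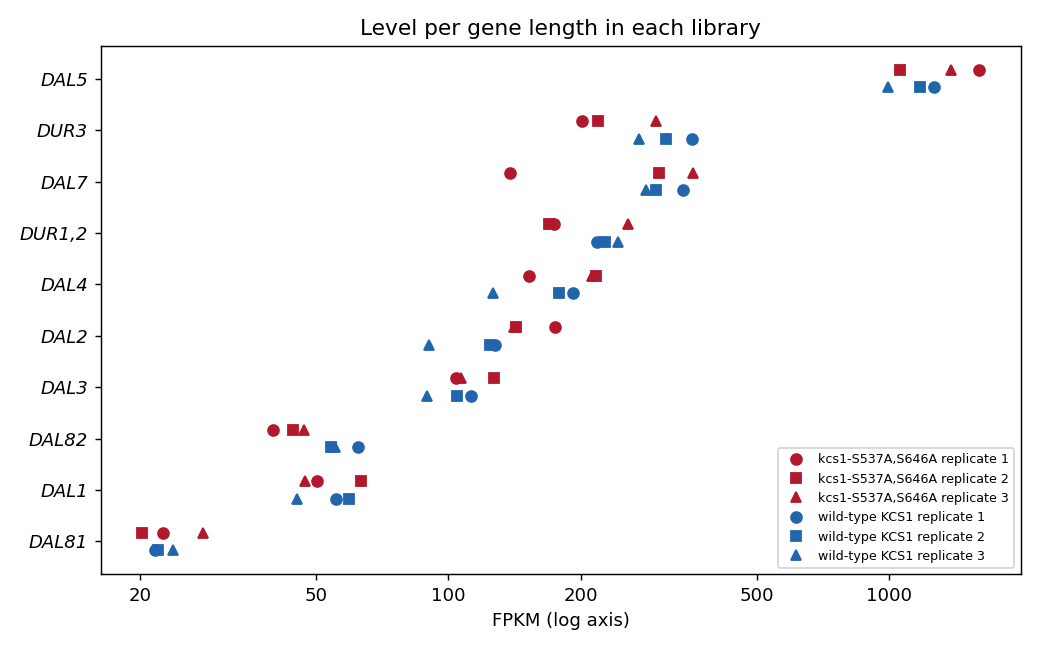
FPKM of the 10 genes in each library (horizontal log axis), ordered by the wild-type mean, with mutant libraries above and wild-type libraries below in each row. *DAL5* is above 993 FPKM in every library and *DAL81* is lowest, between 20.2 and 27.7 FPKM.

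The 4 GATA factor genes and *URE2* were compared as a list of 5 genes. None was called higher and 1 was called lower (background as above, 4.67%), *URE2*, whose product holds Gln3 in the cytoplasm in rich nitrogen. *URE2* lies on chromosome XIV and was at 119.3, 101.5 and 105.0 CPM in the mutant, against 161.0, 179.0 and 157.5 CPM in the wild type, a log2 fold change of -0.61 (adjusted *p* = 0.0092 from edgeR) where its chromosome's median was -0.52. With the offset used for *DAL82*, it was at -0.080 (adjusted *p* = 0.71), and without wild-type replicate 1 or 2 the adjusted *p*-values were 0.053 and 0.061. The activator genes *GLN3* and *GAT1* had log2 fold changes of 0.24 (adjusted *p* = 0.48) and 0.10 (adjusted *p* = 0.68). *GAT1* lies on chromosome VI. *DAL80*, a GATA repressor gene, had -0.32 (adjusted *p* = 0.20). The median of the 5 genes was 0.068.

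Of 18 other genes under nitrogen catabolite repression, *DAL80* among them, none was called in either direction by edgeR, DESeq2 or limma-voom. These called 5.66%, 9.73% and 5.56% of all genes. An unadjusted *p*-value under 0.05 in edgeR was found for 5 of the 18 (20.1% of all genes), and the median log2 fold change was -0.057. The general amino acid permease gene *GAP1* was at 2617, 2350 and 2537 CPM in the mutant, against 2747, 2492 and 2385 CPM in the wild type, with overlapping ranges. The largest differences in size were those of *GDH2*, the NAD-dependent glutamate dehydrogenase gene (0.81, adjusted *p* = 0.32), the vacuolar carboxypeptidase gene *CPS1* (0.55, adjusted *p* = 0.21), the 4-aminobutyrate transaminase gene *UGA1* (-0.38, adjusted *p* = 0.48) and *PUT2*, a gene of proline breakdown (-0.38, adjusted *p* = 0.14). For *GDH2*, mutant replicate 2 (331.3 CPM) lay below all wild-type libraries (392.2 to 502.4 CPM), against the fitted direction. For *UGA1*, mutant replicate 3 (476.9 CPM) lay above all wild-type libraries (397.2 to 448.1 CPM), also against it. The strains overlapped in *CPS1* and did not overlap in *PUT2*, as in 26.6% of all genes. Of 10 paralogs and transporter family members of the *DAL* genes, none was called by edgeR or limma-voom. DESeq2 called 1 lower, *MLS1* (9.73% of all genes were called in either direction). At an unadjusted *p*-value under 0.05 in edgeR there was 1 (20.1% of all genes), and the median was 0.16. *MLS1* lies on chromosome XIV, where the median was -0.52, and 0 of the 10 were called with the chromosome offset. The largest values in that list were those of *MLS1*, given above, and of *THI73*, a relative of *DAL5* (0.57, adjusted *p* = 0.26).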

How the data were processed

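RNA of 6 yeast cultures, 3 of *kcs1*-S537A,S646A and 3 of wild-type *KCS1*, was sequenced as paired-end reads. The authors' sequencing company discarded adapter-containing and low-quality reads, aligned the remainder with hisat (HISAT2 2.0.5) and counted them with featureCounts 1.5.0-p3. The deposited counts are fragments per gene without normalization. The deposited FPKM values were made by the authors by dividing each count by gene length and a depth per library. That depth is proportional to the DESeq2 size factor and not to the library total. A table of mean FPKM per strain was not used. The genome build is not given in the sources used here. Of 7126 genes, 6048 have an identifier in R64 and 6036 of these the same coordinates, and all 10 genes examined give whole reading frames there.

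The fits were run in edgeR 4.0.16 under R 4.3.3. The filter on low counts was filterByExpr (minimum 10 counts). Libraries were normalized by TMM and strains compared by glmQLFit and glmQLFTest without covariates, 2-sided, with Benjamini-Hochberg adjustment over all 6083 genes and a threshold of 0.05. Standard errors were obtained from each fold change and its F statistic, and 95% intervals from the matching *t* quantile. CPM are scaled by TMM factors, and log2 CPM use a prior count of 3. The fits were tested on simulated data with the same spread per gene in both strains and no shift of a chromosome. That test does not cover the larger spread among the mutant libraries or the shifts of chromosomes XIV and VI. The genes and lists were chosen with earlier results of these data known. All 10 genes are named. Of the other lists, called genes and up to 4 with the largest fold changes are named, as are the 5 genes closest to the average profile. Replicate numbers count colonies, so *p*-values measure the spread between colonies of 1 strain each. Alternatives were DESeq2 size factors, library totals, other filters, DESeq2 1.42.0, limma-voom (limma 3.58.1), a replicate block, each library left out, limma-trend on log2(FPKM + 1) or log2(FPKM + 0.1), and fits without, or with an offset for, chromosomes XIV and VI.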

Additional observations from a re-analysis of the deposited data

How the results depend on the processing

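None of the 10 genes was called under any alternative of normalization or filter, in limma-voom, with the replicate block, on FPKM or without any single library (0 throughout). The exceptions were DESeq2, with 1, and the unadjusted threshold, with 2. The calls over all genes, 344 in edgeR, were 592 in DESeq2, 16 without chromosomes XIV and VI, 15 with an offset for them and 1224 at an unadjusted *p*-value, and they lay between 84 and 481 without single libraries. Without wild-type replicates 1, 2 and 3 in turn they were 96, 84 and 122. Genes higher in the mutant made up 17.4% of the calls in edgeR, 28.5% in DESeq2, 56.3% without chromosomes XIV and VI and 66.7% with the offset. Of 179 log2 fold changes of the 10 genes under 18 alternatives, 170 kept their direction and side of the threshold. *DAL82* passed in DESeq2 and turned to 0.15 with the chromosome offset. *DAL1* turned to -0.052 with library totals, -0.014 without chromosomes XIV and VI, -0.14 without mutant replicate 2 and -0.10 without wild-type replicate 3. *DAL81* turned to -0.00045 with library totals and -0.071 without mutant replicate 3, and *DAL7* to 0.10 without mutant replicate 1. Without single libraries the ranges were -0.14 to 0.089 for *DAL1*, -0.071 to 0.16 for *DAL81* and -0.48 to 0.10 for *DAL7*. The other genes kept their direction, with 0.063 to 0.37 for *DAL4* (lowest without wild-type replicate 3, highest without mutant replicate 1), 0.087 to 0.37 for *DAL5* (without mutant replicates 1 and 2), 0.041 to 0.22 for *DAL3* (without mutant replicate 2 and wild-type replicate 1), -0.42 to -0.099 for *DUR1,2* (without mutant replicates 3 and 2), -0.58 to -0.29 for *DUR3*, 0.27 to 0.50 for *DAL2* and -0.44 to -0.32 for *DAL82*. The cause was not tested. *DAL82* has no value without its chromosome. The replicate block gave 282 calls. Deviations of same-numbered libraries correlated at -0.14, 0.025 and 0.35 across genes, and not every library was closest to its own number, so the samples were left unpaired.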
